A study of Bos taurus with 12 samples.

Results

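The genes S100G, SPINK4, C5H12orf75, GNB4, RNF128 and URAD gave array signal above background in bovine conceptuses of inseminated origin and below it in conceptuses made in vitro. They are 6 of 9155 named genes on the array and are read by 8 of its 24016 probe sets. The genes were picked from these same measurements, as above log2 4 in AI and below it in IVP and SCNT conceptuses, with log2 4 taken as the level under which signals cannot be told apart. Their levels in the 3 conceptus groups are therefore a description and carry no test. Their levels in fibroblasts played no part in the choice.

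The 6 genes have unrelated products. S100G encodes calbindin-D9k, a small cytosolic calcium-binding protein of absorptive epithelia that buffers calcium on its way across the cell, and it is known from intestine, uterus and placenta. SPINK4 encodes a secreted Kazal-type peptidase inhibitor of the goblet cells of the intestine. GNB4 encodes a beta subunit of heterotrimeric G proteins, which pass signals from membrane receptors to enzymes and channels. RNF128 (GRAIL) encodes a membrane-anchored ubiquitin ligase known for restraining T-cell activation in mouse and human. URAD encodes a liver enzyme of the pathway that breaks urate down to allantoin, a pathway lost in humans. C5H12orf75 (OCC1) was named for its overexpression in human colon carcinoma, and its function is poorly known.

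The elongated conceptus of day 16 is a filament of trophoblast with an inner layer of hypoblast and a small embryonic disc, collected before it attaches to the uterus. SCNT conceptuses grew from embryos made by somatic cell nuclear transfer, IVP conceptuses from embryos of in vitro fertilization and culture, and AI conceptuses from in vivo embryos of inseminated cows. All were transferred to recipient cows at day 7 and collected at day 16. The fourth group, FB, held fibroblasts that had served as nuclear donors. There were 3 arrays per group. Whether these stand for separate animals, pools or cultures, and how many fibroblast lines were used, is not stated in the labels, and p-values therefore measure array-to-array spread that may be technical.

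Between 6359 and 6643 probe sets lay above log2 4 on an array. Hybridization spikes were brighter on AI 2, IVP 2 and IVP 3, at 8.24 to 8.30 log2 units, than on the other 9 arrays, at 6.93 to 7.75, and AI 2 had the lowest number of probe sets above log2 4. The signal of GAPDH probes at the 3' end minus that at the 5' end, a sign of RNA quality, was 0.28 to 0.45 in SCNT, 0.35 to 0.89 in IVP (highest on IVP 3), 0.21 to 0.38 in AI and 0.01 to 0.06 in FB, and its part in the results was not tested. The labels give FB the same tissue type as the conceptuses. Of 14 measured trophoblast markers 11 were above log2 4 on every array of SCNT, of IVP and of AI, while 0 were in FB, and of 11 fibroblast markers 9 were above it on every FB array. In whole conceptuses, fewer cells of a type and less RNA per cell cannot be told apart.

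S100G and SPINK4 are products of absorptive or secretory epithelium elsewhere in the body, and both were above background on all 3 AI arrays. S100G had 2.55, 2.54 and 2.47 log2 units on the SCNT arrays, 2.42, 2.45 and 2.46 on the IVP arrays, and 6.69, 5.62 and 6.68 on the AI arrays. All 6 SCNT and IVP values lay at the bottom of the scale, near the lowest value of the table (2.42), and AI 2 was the lowest of the AI arrays. SPINK4 had 2.88, 2.63 and 2.67 on the SCNT arrays, 2.61, 2.67 and 2.61 on the IVP arrays, and 7.17, 6.13 and 6.21 on the AI arrays. Here too the AI arrays lay above the threshold and all SCNT and IVP arrays below it, with AI 1 the highest. Since the SCNT and IVP means are bounds, the level in each of these groups was at least 5.02-fold lower than in AI for S100G and at least 5.67-fold lower for SPINK4.

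**Figure D1:**
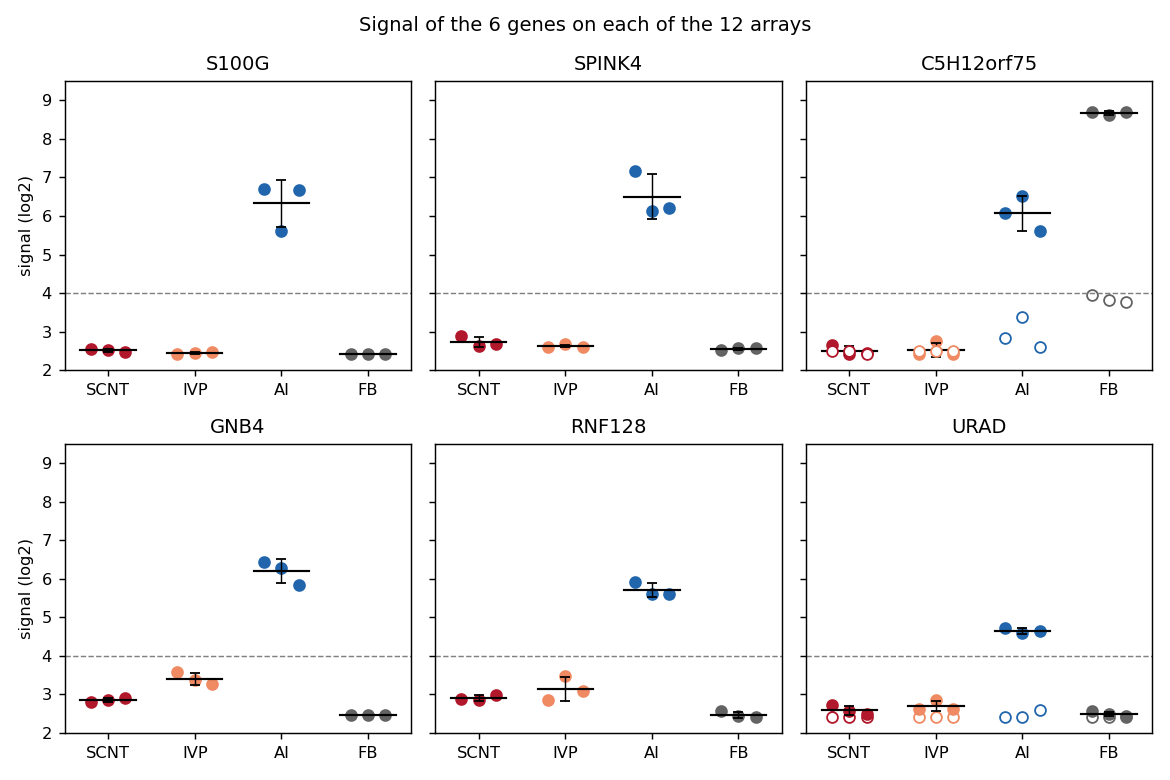
Signal (log2) of the 6 genes on each array, for SCNT, IVP, AI and FB, with 3 arrays a group. Filled points belong to the probe set that met the rule, hollow points to a second probe set of the same gene, black bars give the mean and SD of the filled points, and the dashed line marks log2 4. C5H12orf75 is the one gene of the 6 with FB points above the line, at 8.62 to 8.71.

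GNB4 and RNF128 were also above background on every AI array. GNB4 had 2.80, 2.85 and 2.92 log2 units on the SCNT arrays, 3.57, 3.38 and 3.26 on the IVP arrays, and 6.44, 6.29 and 5.85 on the AI arrays. The IVP values lay above all SCNT values, but both groups were below log2 4, where no fold is given. RNF128 had 2.89, 2.85 and 2.99 on the SCNT arrays, 2.85, 3.46 and 3.10 on the IVP arrays, and 5.92, 5.61 and 5.60 on the AI arrays. Its AI level had an SD of 0.18, against 0.62 for S100G and 0.58 for SPINK4 (n = 3 each). The SCNT and IVP levels were at least 4.57-fold lower than AI for GNB4 and at least 3.27-fold lower for RNF128.

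The 2 probe sets of URAD disagreed. One had 2.72, 2.57 and 2.48 log2 units on the SCNT arrays, 2.62, 2.85 and 2.62 on the IVP arrays, and 4.73, 4.58 and 4.63 on the AI arrays. The AI values were tight (mean 4.65, SD 0.08) but close to the threshold, so that the SCNT and IVP levels were at least 1.57-fold lower. The other probe set of URAD stayed between 2.42 and 2.59 on all 12 arrays and showed no signal above background in any group.

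C5H12orf75 was above background in AI conceptuses and in fibroblasts. One probe set had 2.65, 2.42 and 2.45 log2 units on the SCNT arrays, 2.42, 2.75 and 2.42 on the IVP arrays, 6.08, 6.52 and 5.61 on the AI arrays, and 8.69, 8.62 and 8.71 on the FB arrays. The 4 groups fell into 3 levels with no overlap, FB highest, AI between, and SCNT and IVP together at the bottom. The SCNT and IVP levels were at least 4.20-fold lower than AI. The second probe set of C5H12orf75 was below log2 4 on all 12 arrays. It had 2.42 to 2.51 on the SCNT arrays, 2.49 to 2.51 on the IVP arrays, 2.59 to 3.37 in AI and 3.78 to 3.96 on the FB arrays. At these signals neither a fold nor an order of groups is read.

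The AI arrays did not order the genes alike. AI 1 was highest for 5 genes and AI 2 for C5H12orf75, while AI 2 was lowest for S100G, SPINK4 and URAD and AI 3 for C5H12orf75, GNB4 and RNF128.

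The fibroblast level was the measurement independent of the choice, and there the genes differed. S100G, SPINK4, GNB4, RNF128 and URAD lay below log2 4 on every FB array, with group means of 2.42, 2.55, 2.47, 2.47 and 2.49, and C5H12orf75 lay above it on every FB array. In a limma fit over all 12 arrays and 8164 probe sets, 6 of the 8 probe sets passed the filter on low signal, 1 for each gene, and 5 of them passed through the AI arrays alone. In AI minus FB those 5 were higher in AI and C5H12orf75 was lower (adjusted p under 0.05), in a comparison where 77.2% of all probe sets were called, 41.6% higher and 35.6% lower. For the 5 genes the call follows from their choice and from a fibroblast level at background, so no p is given and nothing is read from the count. Their AI level was at least 5.02-fold higher than FB for S100G, 5.67-fold for SPINK4, 4.57-fold for GNB4, 3.27-fold for RNF128 and 1.57-fold for URAD.

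C5H12orf75 was 6.07-fold lower in AI conceptuses than in fibroblasts, at 6.07 ± 0.46 in AI and 8.67 ± 0.05 in FB (mean log2 ± SD, n = 3 each, difference -2.60, 95% interval -3.02 to -2.19, limma adjusted p = 8.59e-08). All 3 AI arrays lay below all 3 FB arrays, a direction that the choice of the gene did not fix, although the choice used the AI arrays. Over the whole table, 27 probe sets lay above log2 4 on every AI and FB array and below it on every SCNT and IVP array. Of these 23 had a higher mean in FB than in AI, so this direction was common among them. In SCNT conceptuses, whose nuclei came from such fibroblasts, and in IVP conceptuses C5H12orf75 was at least 25.5-fold lower than in FB (2.51 ± 0.12 in SCNT and 2.53 ± 0.19 in IVP). The gene was picked for being below log2 4 in SCNT and IVP, so that these differences follow from the choice once FB is above it, and they are given without a test.

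The other 5 genes were below log2 4 in SCNT, in IVP and in FB, where signals cannot be told apart, so no difference is given between these groups. The fit called 3 of the 6 genes in SCNT minus FB and 3 in IVP minus FB, C5H12orf75 with GNB4 and RNF128, 2 higher and 1 lower each. Of all probe sets 79.9% were called in SCNT minus FB (45% higher and 34.8% lower) and 78.7% in IVP minus FB (43% higher and 35.7% lower). Nothing is read from the calls of GNB4 and RNF128, which ended when signals below log2 4 were set to 4.

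The same on and off rule was then applied to the whole table. Of 24016 probe sets 97, or 0.404%, were above log2 4 on every AI array and below it on every SCNT and IVP array, covering 56 named genes and 40 probe sets with no single gene symbol. The 6 genes had 6 of these 97, a count that the choice fixes. The opposite pattern, on in SCNT and IVP and off in AI, held for 46 probe sets, on in SCNT alone for 20, in IVP alone for 4, in IVP and AI for 8 and in SCNT and AI for 5. A further 1878 probe sets had arrays of one group on both sides of log2 4, and 5485 were on and 16473 off on all 9 conceptus arrays.

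**Figure D2:**
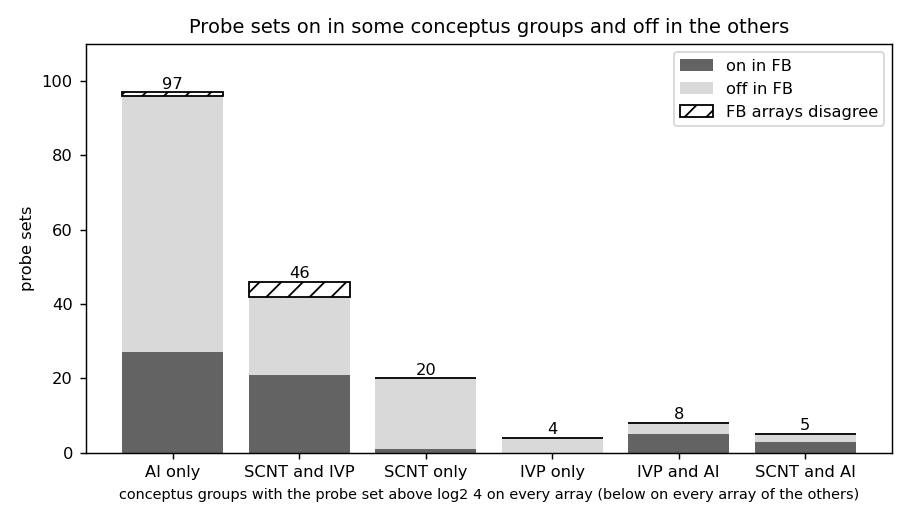
Number of probe sets above log2 4 on every array of some conceptus groups and below it on every array of the others, split by their state in fibroblasts (FB). The pattern of the 6 genes, on in AI alone, holds 97 probe sets, of which 27 were on and 69 off in FB.

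Many of the 97 lay close to the threshold, and 61 of them had an AI mean under log2 5, URAD among them. Signals of different probe sets depend on the probe and do not rank transcripts. The other named genes with the highest AI signal among the 97 were TKDP2, a trophoblast Kunitz-domain protein (AI mean 10.51), ALAS2 of heme synthesis (6.80), TSPO of the outer mitochondrial membrane (6.38), STAR, which carries cholesterol into mitochondria (6.29), ADGRE5 (6.18) and CD48 (5.92). Just inside the threshold were PEG3, CAPN5 and TSPAN33, with their lowest AI array 0.00192 to 0.00925 above it. Just outside were IL6R and SCNN1G, each with 1 or more SCNT or IVP arrays over it (margins of -0.00200 and -0.00465), and PLA2R1, with a lowest AI array at 3.99.

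Array AI 2 was the lowest of the AI arrays for 56 of the 97 probe sets (57.7%), and for 46.9% of the 6020 probe sets on in all AI arrays. Without AI 2 the rule was met by 148 probe sets. With the threshold at log2 3.5 GNB4 no longer met it, because IVP 1 had 3.57, and with the threshold at log2 5 URAD no longer met it.

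Of the 97 probe sets 27 were on and 69 off on every FB array, and the FB arrays of 1 disagreed. The 27 took in 15 named genes, C5H12orf75 among them, and 23 of them had a higher mean in FB than in AI. Over all 24016 probe sets 26.4% were on in FB, and among those on in all 3 conceptus groups 82.0%. The other genes of the 15 with the highest FB means were FOS, an immediate-early transcription factor (5.10 in AI and 9.84 in FB), TSPO (6.38 in AI and 9.14 in FB), the cell cycle inhibitor gene CDKN1A (4.78 in AI and 7.91 in FB) and the sulfotransferase gene SULT1A1 (5.82 in AI and 7.10 in FB).

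**Figure D3:**
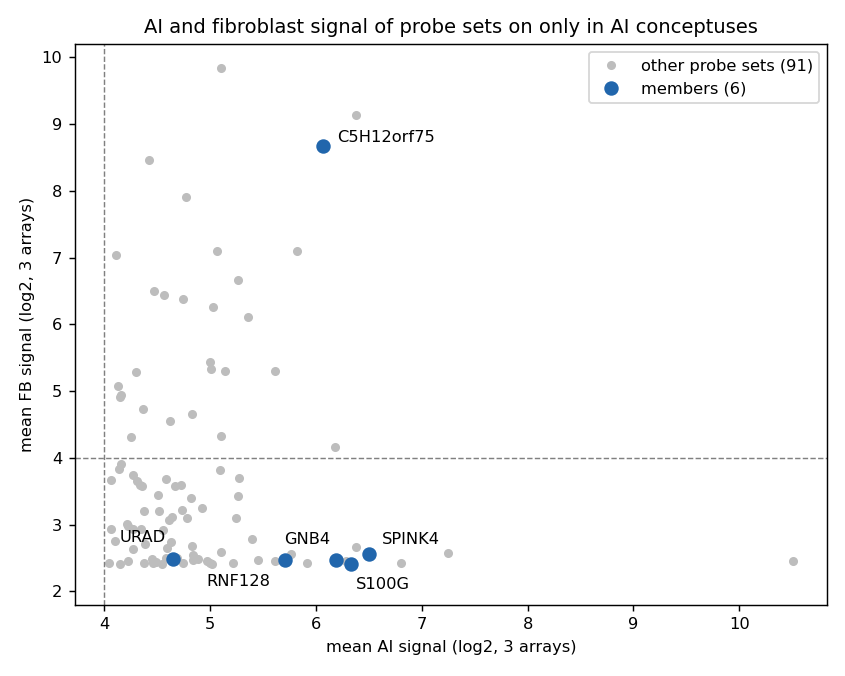
Mean AI signal against mean FB signal (log2, 3 arrays each) of the 97 probe sets on in AI alone among conceptuses, with the 6 genes in blue and dashed lines at log2 4. C5H12orf75 lies in the upper part, at 6.07 in AI and 8.67 in FB, while the other 5 genes lie along the bottom, at 2.42 to 2.55 in FB.

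The named genes nearest to each of the 6 were found by the mean absolute log2 difference over the 12 arrays, with signals below log2 4 set to 4, a likeness of array signal that also depends on the probes. For S100G, SPINK4, GNB4, RNF128 and URAD every SCNT, IVP and FB signal becomes 4, largely through the choice of these genes. Their distances therefore rest mainly on the AI arrays, come out small for genes dim in AI, and are a description only. STAR was nearest to S100G (0.05) and SPINK4 (0.07). CD48, a leukocyte surface protein, was second for S100G (0.10) and ALAS2 second for SPINK4 (0.09). GNB4 was nearest to F2RL2, a thrombin receptor of the protease-activated family (0.12), and STAR (0.13), and RNF128 to CNR2, a cannabinoid receptor (0.06), and the tight junction gene CLDN1 (0.06). F2RL2 (AI mean 5.95) was among the 3 nearest of S100G, SPINK4, GNB4 and RNF128 and CNR2 (AI mean 5.65) among those of GNB4 and RNF128, though neither met the rule on every array. URAD was nearest to CNOT6 (0.01), EHD4 (0.02) and EAF2 (0.02), all dim in AI. For C5H12orf75 the FB arrays also lay above log2 4, so its distances rest on both AI and FB arrays. They cannot be compared in size with the distances of the other genes. Its nearest genes were TRIM2 (0.30), TSPO (0.31) and SRPX (0.32), each of them brighter in FB than in AI. Among the 6 themselves, SPINK4 and GNB4 were the closest pair (0.10), while C5H12orf75 lay 1.24 or more from each of the others. The distances of C5H12orf75 from the others include the FB arrays, where it alone of the 6 was above log2 4.

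Genes beside the 6 on the chromosome were looked up next. The gene order was taken from the RefSeq annotation of ARS-UCD2.0, with 2 protein-coding genes on each side, an examination added after the levels were seen. Of 24 such neighbours 10 had a named probe set, beside 4 of the 6 genes, and 0 of the 10 met the rule, which 0.404% of all probe sets met. The neighbours of SPINK4, namely SMU1, B4GALT1, BAG1 and CHMP5, were on in every group. B4GALT1, a galactosyltransferase gene, had means of 8.35 in SCNT, 8.99 in IVP, 10.03 in AI and 6.31 in FB, highest in AI. Beside S100G, SYAP1 and AP1S2 were on in every group, and CTPS2 was near the threshold (3.54 in SCNT, 4.08 in AI and 4.16 in FB, with IVP between SCNT and AI). Beside GNB4, ACTL6A was on and ZNF639 off in every group. Next to C5H12orf75, the kinase gene NUAK1 was off in all conceptus groups (2.42 in SCNT, 2.47 in IVP, 3.14 in AI) and on in FB (6.82). URAD lies next to the homeobox gene CDX2, which has no named probe set here.

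Relatives of the 6 genes were followed in the conceptus groups by lists of 148 genes. The lists took in S100 proteins, calcium transport and vitamin D, Kazal-domain proteins with peptidase inhibitors, and goblet and intestinal epithelium. They also took in heterotrimeric G proteins, ligases related to RNF128 with their partners, and purine breakdown. Of the 148 genes 88 were on the array and 38 passed the filter. In SCNT minus AI 5 were higher and 10 lower, where 27.6% of all 6892 probe sets were called (16.2% higher and 11.4% lower), and the median difference was -0.16 over the 38 genes and 0.08 over all probe sets. In IVP minus AI 2 were higher and 5 lower, where 17.9% were called (8.42% higher and 9.49% lower), with medians of -0.11 and 0.02. None of the 88 met the on and off rule, and both comparisons share the AI arrays.

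**Figure D4:**
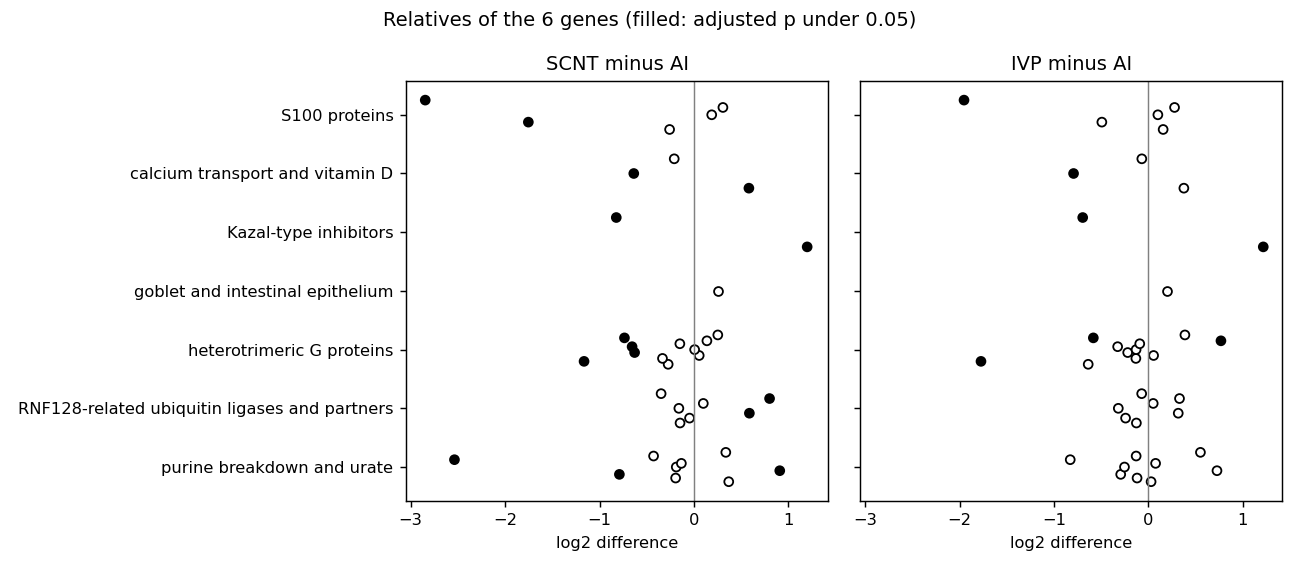
Difference (log2) of SCNT minus AI and of IVP minus AI for each tested relative of the 6 genes, by list, filled where the adjusted p was under 0.05. S100A2 and NT5E lie farthest to the left in SCNT minus AI, at -2.85 and -2.54.

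S100A2, an S100 protein of epithelia, had 7.60, 7.44 and 6.66 log2 units on the SCNT arrays, 8.22, 7.87 and 8.28 on the IVP arrays, and 9.61, 10.22 and 10.41 on the AI arrays. It was 7.19-fold lower in SCNT (adjusted p = 6.69e-05) and 3.87-fold lower in IVP (adjusted p = 0.00103) than in AI. S100A11 was 3.37-fold lower in SCNT than in AI (7.97 ± 0.28 in SCNT and 9.73 ± 0.69 in AI, adjusted p = 0.00225). Of 5 tested S100 genes 2 were lower in SCNT and 1 in IVP, the others not passing. Of the goblet and intestinal list 1 gene was tested, EPCAM, and it passed in neither comparison. Of 3 tested calcium genes, the plasma membrane calcium pump gene ATP2B1 was lower by 0.64 in SCNT and 0.79 in IVP on the log2 scale, and the reticulum pump gene ATP2A2 was 0.58 higher in SCNT. SPINT2 and FST, the 2 tested genes of the list of Kazal-domain proteins and peptidase inhibitors, went opposite ways. SPINT2 was 1.77-fold lower and FST 2.29-fold higher in SCNT, and SPINT2 1.62-fold lower and FST 2.32-fold higher in IVP.

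Of 11 tested G-protein genes 0 were higher and 4 lower in SCNT, and 1 was higher and 2 lower in IVP. GNAI1, an inhibitory alpha subunit, had 8.01, 8.15 and 8.09 on the SCNT arrays, 7.21, 8.01 and 7.20 on the IVP arrays and 9.08, 9.38 and 9.28 on the AI arrays, 2.24-fold lower in SCNT (adjusted p = 0.00270) and 3.42-fold lower in IVP (adjusted p = 4.16e-04). The gamma subunit gene GNG5 was lower by 0.74 in SCNT and 0.58 in IVP on the log2 scale. The beta subunit gene GNB2 was lower by 0.66 and the stimulatory alpha subunit gene GNAS by 0.63 in SCNT (log2), and GNG2 was 0.77 higher in IVP. Of 7 tested ligases and partners USP8, a deubiquitinase, was 1.74-fold higher and RNF167 0.59 higher on the log2 scale in SCNT, and 0 passed in IVP. Of 9 purine genes NT5E, the ectonucleotidase that makes adenosine, was lower in SCNT (3.81 ± 0.58 in SCNT and 6.35 ± 1.43 in AI, adjusted p = 0.0111). It had 3.34, 3.64 and 4.46 on the SCNT arrays and 6.78, 7.51 and 4.76 on the AI arrays. No fold is given for NT5E, because SCNT 3 lay above log2 4. In SCNT, AMPD2 was at least 1.22-fold lower (not called with signals below log2 4 set to 4, difference -0.30, adjusted p = 0.293) and APRT 1.88-fold higher. Of the 9 purine genes 0 passed in IVP. The adjusted p of the calls given here without one ran from 0.00205 to 0.0420 in SCNT and from 0.0103 to 0.0324 in IVP.

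Leaving out 1 array ended 8 of the 15 calls in SCNT minus AI. They were those of RNF167 (without SCNT 1, SCNT 2, AI 1, AI 2 or any IVP array), ATP2A2 and APRT (each without SCNT 2, SCNT 3, AI 1 or AI 2), GNAS and GNB2 (each without SCNT 2, SCNT 3, AI 1 or AI 3), ATP2B1 and AMPD2 (each without SCNT 2, SCNT 3 or AI 3) and FST (without AI 2), with adjusted p from 0.0506 to 0.156 where a call ended. It ended 4 of the 7 calls in IVP minus AI: GNG2 (without AI 1, AI 3 or any IVP array), GNG5 (without IVP 1, IVP 2, AI 2 or AI 3), SPINT2 (without IVP 3 or any AI array) and FST (without IVP 3, AI 1 or AI 2), with adjusted p from 0.0502 to 0.104. The calls of S100A2 and GNAI1 in both comparisons, and those of S100A11, SPINT2, GNG5, USP8 and NT5E in SCNT and of ATP2B1 in IVP, held whichever array was left out. Without the filter on low signal, however, those of S100A11, SPINT2 and NT5E in SCNT (adjusted p = 0.0521, 0.0948 and 0.147) and of ATP2B1 in IVP (0.0801) ended. Without AI 2, IVP 2 and IVP 3 together, S100A2 was no longer called in IVP minus AI (difference -1.79). The difference of NT5E ran from -3.33 to -1.96 over these omissions. The count of called relatives was 8 without SCNT 2 and 9 without SCNT 3 in SCNT minus AI, and 4 without IVP 3 and 4 without AI 2 in IVP minus AI.

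Marker lists of other cell types were measured on the same arrays, because S100G and SPINK4 are known from intestine and uterus and RNF128 from lymphocytes. Of 16 measured goblet and intestinal markers, 1 was above log2 4 on every array of SCNT, of IVP and of AI, the general epithelial gene EPCAM, at 9.92 in SCNT, 9.87 in IVP and 9.67 in AI. TFF3, AGR2, SPDEF and FABP2 were at or within 0.01 of the lowest value of the table in all 4 groups. ANPEP had arrays on both sides of log2 4 in AI (mean 2.50 in SCNT, 2.51 in IVP and 3.66 in AI), and GUCA2A was below it throughout (2.73 in SCNT, 2.56 in IVP and 3.19 in AI). KRT20 (2.97 in SCNT, 3.13 in IVP and 2.70 in AI) and CDH17 (2.94 in SCNT, 3.13 in IVP and 3.10 in AI) were also below it, with their highest means in IVP. The log2 of the summed signal of the list was 9.69 to 10.23 in SCNT, 9.85 to 10.17 in IVP and 9.82 to 9.84 in AI. Of 12 uterine epithelial markers 0 were on in SCNT, 0 in IVP, 1 in AI (CST6) and 2 in FB (CST6 and MSX1). CST6 had means of 3.78 in SCNT, 3.99 in IVP, 4.39 in AI and 5.43 in FB. Its SCNT and IVP arrays lay on both sides of log2 4. MSX1 had 3.27 in SCNT, 3.08 in IVP, 3.97 in AI and 6.83 in FB, with AI arrays on both sides of log2 4. UPK1B was below log2 4 (2.52 in SCNT, 2.85 in IVP and 3.18 in AI). The uterine secretory genes SERPINA14 and LTF and the receptor genes ESR1 and OXTR had means of 2.42 in AI, and PAEP 2.47. The log2 of the summed uterine signal was 6.33 to 6.44 in SCNT, 6.33 to 6.52 in IVP and 6.53 to 6.85 in AI. It was highest in FB, at 7.69 to 7.74.

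Leukocyte and red blood cell lists were brighter in AI through a few members. Of 18 leukocyte markers 1 was on in SCNT, 2 in IVP and 4 in AI (ITGB2, RAC2, AIF1 and CD48), with the log2 of the summed signal at 7.06 to 7.85 in SCNT, 7.18 to 8.07 in IVP and 9.87 to 10.48 in AI. CD48 itself meets the on and off rule. ITGB2 had means of 4.14 in SCNT, 4.67 in IVP and 8.47 in AI, and RAC2 4.54 in SCNT, 5.46 in IVP and 8.70 in AI. On every AI array 14 of the 18 were below log2 4, among them PTPRC, CD3E, ITGAM and TYROBP with means of 2.42 and CD14 with 3.24. The trophoblast marker KRT8 also had means of 2.76 to 2.84 in the conceptus groups, so signal below log2 4 is not read as absence. Of 10 red blood cell markers 0 were on in SCNT and IVP, and in AI ALAS2 alone, which also meets the on and off rule. The globin genes HBA, HBB and HBG stood at 2.42 to 2.43 in AI. The summed log2 signal of that list was 5.75 to 5.78 in SCNT, 5.76 to 5.81 in IVP and 6.87 to 8.13 in AI. Of 14 hypoblast and yolk sac markers 5 were on in each conceptus group, with the log2 of the summed signal at 12.26 to 12.60 in SCNT, 12.96 to 13.21 in IVP and 12.78 to 13.49 in AI. Several of its secreted proteins had their highest mean in AI. AHSG had 7.17 in SCNT, 10.55 in IVP and 11.68 in AI, and RBP4 5.67 in SCNT, 6.34 in IVP and 7.16 in AI. TF had 2.76 in SCNT, 2.90 in IVP and 4.64 in AI, with AI arrays on both sides of log2 4. FGG had a mean of 2.58 in SCNT and 3.55 in IVP and was also highest in AI. APOA2 had 3.40 in SCNT, 4.37 in IVP and 4.54 in AI. FGG and APOA2 each had IVP and AI arrays on both sides of log2 4. Others of the list did not peak in AI. APOA1 (11.65 in SCNT, 12.07 in IVP and 11.94 in AI) and FN1 (10.88 in SCNT, 11.33 in IVP and 10.90 in AI) were highest in IVP. TTR and FGB had means of 2.43 and 2.42 in each conceptus group. Of 3 embryonic disc markers 1 was on in SCNT, 1 in IVP and 0 in AI. The part of these lists in the levels of the 6 genes was not tested.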

How the data were processed

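Conceptus and fibroblast RNA was amplified and biotin-labelled for Affymetrix bovine arrays, per the labels' protocols. For 24128 probe sets and 12 arrays the authors deposited log2 signals. The submitters' processing notes name GCRMA and limma. Their versions and the set of arrays normalized jointly are not stated there. Of all values 36.9% lay within 0.01 of the lowest, 2.42, so log2 4 was taken as the limit of measurable signal. Excluding 112 control probe sets left 24016. The array annotation gave 1 symbol to 13292, several to 86 and none to 10638. Of the 13292, 13263 matched a gene ID of RefSeq ARS-UCD2.0, which changed 0 symbols.

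Deposited values were not normalized again. A probe set was fitted if 3 or more arrays exceeded log2 4, with limma 3.58.1 in R 4.3.3, with 1 coefficient per group. AI, IVP and SCNT were each compared with FB over 12 arrays (8164 probe sets, 8 residual degrees of freedom), and SCNT and IVP with AI over the 9 conceptus arrays (6892, 6 residual degrees of freedom). Tests were two-sided, with Benjamini-Hochberg adjustment over all probe sets of a comparison. A fold against a group with a mean below log2 4 was computed against 4, and written as "at least". NT5E was given without a fold, because its SCNT 3 array exceeded log2 4, and AMPD2 because its AI 2 array lay below it. Lists of relatives used the brightest tested probe set of each gene. All 6 genes were named, with their 3 nearest genes, up to 4 called relatives per list, the 10 brightest named probe sets meeting the rule and 3 on each side of the threshold. The number of arrays limits the precision. Genes and lists were chosen with earlier results of these data known. The procedure was tested on simulated data. Alternatives were other filters, scalings, a floor, variance models, sets of arrays, a block for the replicate number and leaving out arrays 1 at a time.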

Additional observations from a re-analysis of the deposited data

How the results depend on the processing

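The calls of all 6 genes in AI minus FB, and of C5H12orf75 in SCNT and IVP minus FB, kept their direction and an adjusted p under 0.05 in every alternative in which they were tested. All of them except C5H12orf75 in AI minus FB follow from the choice of the genes together with their fibroblast level. That level played no part in the choice and lay at background, or above log2 4 for C5H12orf75. Nothing is read from the persistence of these calls. The sizes of the differences were less steady. With signals below log2 4 set to 4, AI minus FB was 2.33 for S100G, 2.50 for SPINK4, 2.19 for GNB4, 1.71 for RNF128 and 0.65 for URAD, against 3.91, 3.95, 3.72, 3.24 and 2.16. For C5H12orf75 it was -2.60 in both. With that floor 1 of the 6 was called in SCNT minus FB and 1 in IVP minus FB, against 3 each.

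Without a filter, called relatives numbered 7 in SCNT minus AI and 2 in IVP minus AI, against 15 and 7, and all called probe sets 984 and 484, against 1902 and 1234, over 24016 tested (88 relatives). Called relatives in IVP minus AI were 4 with the other groups left out of the fit, and 2 without AI 2, IVP 2 and IVP 3, where all called probe sets were 580. Leaving out 1 array gave 8 to 15 and 4 to 7 called relatives and 1190 to 1944 and 794 to 1227 called probe sets in the 2 comparisons, 6 to 6, 3 to 3 and 2 to 3 called member genes against FB for AI, IVP and SCNT, and 101 to 148 probe sets on in AI alone. That last number was 17 when AI had to exceed log2 5 and 305 by group means. Replicate numbers did not pair the arrays: correlations of same-numbered deviations ran from -0.12 to 0.21, and the replicate block left 6 genes called in AI minus FB and 14 relatives in SCNT minus AI, against 15. Probe sets whose signals lie near log2 4, such as URAD, are the least certain.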
